A study of Homo sapiens with 32 samples.

Results

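PC3 cells were treated in this series with 2 agents directed at CSN5. CSN5i-3 is a chemical inhibitor of its catalytic site, and shCSN5 is an shRNA against the mRNA of the subunit itself. Only RNA is described here, not the activity or the protein of CSN5. The quantity described here is, gene by gene, the effect of CSN5i-3 against DMSO minus the effect of shCSN5 against a scramble shRNA, both in PC3, a human prostate cancer line that the labels trace to ATCC. It rests on 8 of the 32 libraries of the series, which cover 4 prostate cancer lines. The inhibitor experiment has 2 DMSO libraries and 2 with CSN5i-3 at 10 µM, and belongs to the sequencing project lettered F. The knockdown experiment has 2 scramble libraries and 2 shCSN5 libraries of infected cells, and belongs to the project lettered J. The titles name a single hairpin (sh37) and the labels give no hours or days of exposure, no selection step and no deletion or treatment common to the 4 groups beyond these agents. The second shCSN5 library was placed by its title and description, although one of its characteristics speaks of drug treatment. Every library of one treatment type was made in 1 project, so a difference between the inhibitor and the hairpin cannot be told apart from one between the projects wherever a project acted unequally on a treated group and its control. Nothing in the labels says that the 2 libraries of a group came from separate cultures, so the p-values reflect how far these libraries scatter, which may be technical. RNA was measured in bulk, where fewer cells of a kind and less RNA per cell cannot be told apart.

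CSN5, encoded by COPS5, is the metalloprotease subunit of the COP9 signalosome. The complex removes the ubiquitin-like protein NEDD8 from cullins, the scaffolds of the largest family of ubiquitin ligases, and a ligase that stays neddylated can end up degrading its own substrate receptor. Cullin ligases control the stability of IκB, which holds NF-kB in the cytoplasm, of NRF2, of HIF-1α and of several regulators of the cell cycle. An inhibited CSN5 protein is still present in the complex, while a knockdown leaves fewer CSN5 molecules.

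The libraries held 40.6M to 50.9M counts in the inhibitor experiment and 25.5M to 32.5M in the knockdown experiment (M, 1e+06). Levels are CPM, counts scaled to a TMM-adjusted library total of 1e+06, and effects are log2 fold changes ± SE with 2 libraries per group. A gene was called when the adjusted p of edgeR's quasi-likelihood test was under 0.05. The inhibitor pairs lay close to counting noise (chi-square per gene 1.70 between the DMSO libraries and 2.32 between the CSN5i-3 libraries), whereas the scramble pair stood at 31.1 and the shCSN5 pair at 14.1. The biological coefficient of variation was 0.018 in the inhibitor experiment and 0.14 in the knockdown experiment. One estimate of the spread over the 8 libraries served both effects, so counts or p-values from the 4 knockdown libraries alone are given beside some of the knockdown results. The 2 control groups themselves differed in 12193 of 16794 genes (72.6%). KLK3 and KLK2, luminal prostate genes that PC3 lacks, held 5 and 0 counts over the 8 libraries, and VIM, a mesenchymal filament protein abundant in PC3, was at 1086 to 1520.2 CPM in each library.

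COPS5 itself went in opposite directions. It stood at 75.5 and 76.3 CPM with DMSO, 106 and 106 with CSN5i-3, 114 and 103 with scramble and 11.01 and 11.9 with shCSN5. The shCSN5 libraries lay far below all the others, and the CSN5i-3 libraries lay above both DMSO libraries. COPS5 mRNA fell with the hairpin by 3.25 ± 0.086 (adjusted p = 2.4e-06) and rose with the inhibitor, 0.49 ± 0.077 (adjusted p = 0.00096), and the 2 effects differed by 3.73 ± 0.11 (adjusted p = 2.4e-06). Of the other subunits of the complex, the inhibitor lowered COPS6, the MPN-domain partner of CSN5: 249 and 253 CPM with DMSO, 119.8 and 119 with CSN5i-3, 197 and 218 with scramble and 158 and 168 with shCSN5. The groups did not overlap, with the DMSO libraries highest and the CSN5i-3 libraries lowest. The inhibitor effect on COPS6 was -1.07 ± 0.072 (adjusted p = 1.4e-05), and the difference from the knockdown was -0.72 ± 0.10 (adjusted p = 0.0012). The knockdown effect was -0.35 ± 0.072 (adjusted p = 0.0081), with an adjusted p of 0.11 in the 4 knockdown libraries alone. COPS3 and COPS4, both PCI-domain scaffold subunits, were higher under the inhibitor relative to the knockdown by 0.59 ± 0.11 and 0.59 ± 0.13, the latter with adjusted p from 0.0084 in all libraries to 0.056 without CSN5i-3 replicate 1 and 0.066 without DMSO replicate 1. In all, 3 of 10 subunits were higher and 1 was lower in the difference of the effects, against 20.5% and 18.6% of the 16794 genes tested. The remaining subunits, GPS1, COPS2, COPS7A, COPS7B, COPS8 and COPS9, differed by -0.20 to 0.38 between the effects and were not called in this fit. In an edgeR fit blocked on the replicate number, COPS2, COPS9, GPS1 and COPS7A were called (adjusted p = 0.00022, 0.0012, 0.0082 and 0.039).

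Among the cullin scaffolds and their RING partners, 5 of 10 were higher under the inhibitor relative to the knockdown with TMM scaling and 3 with total counts, upper quartile or DESeq2 scaling, and 2 to 4 were lower. With TMM scaling, 20.5% of all genes were higher and 18.6% lower. The median difference of these 10 genes was 0.091, and -0.05 with total counts. CUL4B, a scaffold of ligases that act on chromatin and replication proteins, stood at 66.98 and 64.96 CPM with DMSO, 106 and 100.4 with CSN5i-3, 229 and 184 with scramble and 194 and 173 with shCSN5. It was up in both CSN5i-3 libraries and spread widely between the scramble libraries, and its effects differed by 0.82 ± 0.15 (adjusted p = 0.0046). CUL1, the scaffold of the F-box ligases, rose with the inhibitor by 0.29 ± 0.075 and had a knockdown effect of -0.40 ± 0.075 (adjusted p = 0.0056), with an adjusted p of 0.074 in the knockdown libraries alone. CUL7 had 77.3 and 74.6 CPM with DMSO, 34.04 and 34.2 with CSN5i-3, 29.9 and 41.4 with scramble and 31.6 and 36.7 with shCSN5. The CSN5i-3 libraries were below DMSO and within the range of the scramble libraries. The inhibitor effect was -1.15 ± 0.15 (adjusted p = 0.00031), the knockdown effect -0.059 ± 0.15 (adjusted p = 0.79), and the difference from the knockdown was -1.10 ± 0.21 (adjusted p = 0.0047). CUL9, the relative of CUL7, went down with the inhibitor, -0.63 ± 0.16 (adjusted p = 0.0097), and the difference was -1.18 ± 0.23 (adjusted p = 0.005). Of the 13 genes of NEDD8 conjugation and exchange, UBE2F, the NEDD8-conjugating enzyme that serves CUL5, was higher under the inhibitor relative to the knockdown by 0.65 ± 0.14 (adjusted p = 0.0091), with an adjusted p of 0.070 without CSN5i-3 replicate 1 and 0.051 and 0.069 without either DMSO replicate. DCUN1D3, which assists cullin neddylation, and CAND2, a substrate receptor exchange factor, were lower, with differences of -0.86 ± 0.13 and -1.54 ± 0.24. NEDD8 itself fell with both agents, -0.46 ± 0.071 (adjusted p = 0.00082) with the inhibitor and -0.41 ± 0.071 (adjusted p = 0.0039) with the hairpin (adjusted p = 0.066 in the knockdown libraries alone), and the 2 effects differed by -0.05 ± 0.10 (adjusted p = 0.73).

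**Figure D1:**
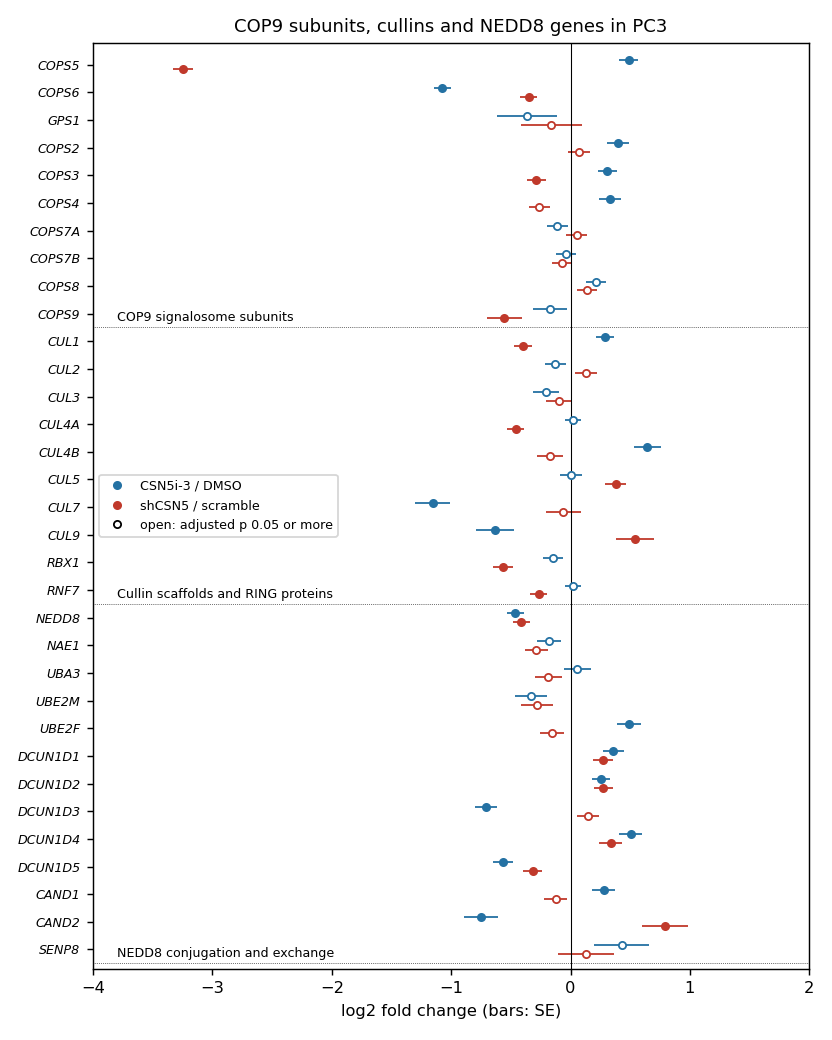
log2 fold changes (x axis, bars are SE) of COP9 subunit, cullin, RING and NEDD8 pathway genes with CSN5i-3 against DMSO (blue) and with shCSN5 against scramble (red), with filled points for adjusted p under 0.05. COPS5 is the outlying member, at -3.25 with the hairpin and 0.49 with the inhibitor.

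Over all genes, the inhibitor changed more genes and by larger amounts. It changed 9781 of 16794 genes (58.2%), with 4998 higher (29.8%) and 4783 lower (28.5%). The hairpin changed 5583 (33.2%), with 2666 higher (15.9%) and 2917 lower (17.4%). The median size of the effect was 0.51 with the inhibitor and 0.32 with the hairpin, and 3479 genes moved at least 2-fold with the inhibitor against 1130 with the hairpin. Fitted on its 4 libraries alone, the inhibitor changed 12659 of 16423 genes (77.1%; 38.5% higher and 38.5% lower) and the hairpin 2578 of 15465 (16.7%; 1586 higher, 10.3%, and 992 lower, 6.41%). The difference of the effects was called in 6559 genes (39.1%), 3442 higher and 3117 lower under the inhibitor, and by at least 2-fold in 844 higher (5.03%) and 1772 lower (10.6%). With the spread estimated in each experiment, a choice added after the data were seen, it was called in 2860 higher (19%) and 3365 lower (22.4%) of 15043 genes. Scaling moved this split: total counts gave 2469 higher and 3898 lower and upper quartile factors 2544 and 3737, and they moved the median difference over all genes from 0.0088 to -0.13 and -0.11. For the knockdown effect, total counts gave 3837 higher and 1815 lower.

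Both agents changed 3975 genes, 40.6% of those changed by the inhibitor and 71.2% of those changed by the hairpin. Of these, 1484 rose with both (8.84% of the genes tested), 1566 fell with both (9.32%) and 925 went opposite ways. The opposed genes were 483 that rose with CSN5i-3 and fell with shCSN5 (2.88%) and 442 that fell with CSN5i-3 and rose with shCSN5 (2.63%). Which of these directions held more genes depended on the setting: the counts were 241 and 644 with total counts, 279 and 554 with upper quartile factors, 315 and 659 without the filter on low counts, 158 and 338 without DMSO replicate 1, 157 and 342 without DMSO replicate 2, and 165 and 341 without CSN5i-3 replicate 1. Across genes the 2 effects had a Pearson r of 0.22 and a Spearman rho of 0.30, over 16794 genes that are not independent and that share the libraries of each experiment. Without a knockdown call, 1815 genes rose with the inhibitor and were higher in the difference, and 1568 fell and were lower.

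**Figure D2:**
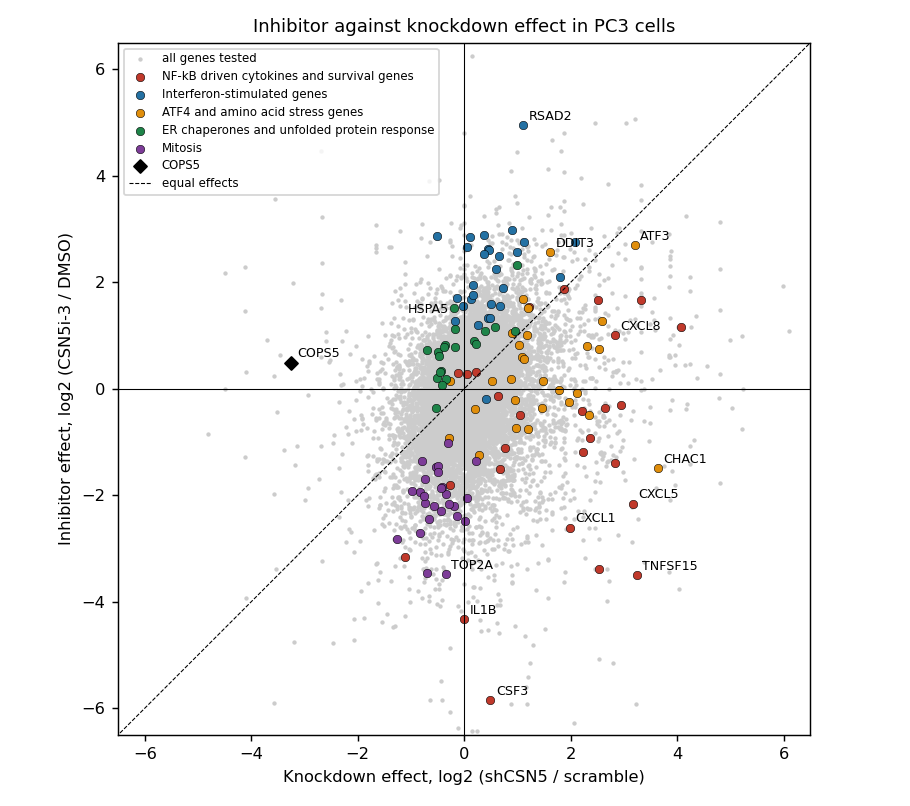
Each point is a gene, with the knockdown effect (log2, shCSN5 / scramble) on the x axis and the inhibitor effect (log2, CSN5i-3 / DMSO) on the y axis, coloured for 5 gene lists, and the dashed line marks equal effects. Interferon genes (blue) and ER chaperones (green) lie mostly above the line, NF-kB driven cytokines (red), ATF4 genes (orange) and mitosis genes (purple) mostly below it. 10 genes lie outside the plotted range.

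Genes that NF-kB is known to drive showed the widest separation of any list with at least 8 measured members. Of 28 cytokine and survival genes, 20 were lower and 1 was higher under the inhibitor relative to the knockdown, with a median difference of -2.41 against 0.0088 over all genes (-2.63 with CCL20, which was at 0 in the scramble libraries, set to its bound and CXCL10 left out). The 1 higher gene, CD83, was not called with any other scaling. With CSN5i-3, 18 fell and 9 rose, with the hairpin 18 rose (17 in the knockdown libraries alone) and none fell, and 13 both fell with the inhibitor and rose with the hairpin, against 2.63% of all genes. The starting levels were unequal: 26 of the 28 genes were higher in DMSO than in scramble cells (35.3% of all genes), by a median of 4.51. TNFSF15, a TNF family ligand, stood at 78.2 and 75.5 CPM with DMSO, 6.46 and 7.16 with CSN5i-3, 2.50 and 2.41 with scramble and 23.9 and 22.6 with shCSN5. The 4 groups did not overlap, and DMSO libraries were highest and scramble libraries lowest. The inhibitor effect was -3.50 ± 0.092 (adjusted p = 4.1e-07), the knockdown effect 3.24 ± 0.10 (adjusted p = 4.9e-06) and the difference -6.74 ± 0.14 (adjusted p = 6.6e-07).

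The promoters of the neutrophil chemokine genes CXCL1 and CXCL5 are shown because both genes went opposite ways and both windows hold a match to the NF-kB site (GGG, 2 bases of any kind, TTTCC), in capitals. The sequences are the 250 bases before the transcription start in RefSeq, GRCh38.p14, at chr4:73869143-73869392 (plus strand) and chr4:73998678-73998927 (minus strand), and these genes were chosen after their values were seen. Searched on both strands, the motif was in 9 of 24 list members with a promoter in the table (37.5%) and in 578 of 27305 genes (2.12%).
CXCL1: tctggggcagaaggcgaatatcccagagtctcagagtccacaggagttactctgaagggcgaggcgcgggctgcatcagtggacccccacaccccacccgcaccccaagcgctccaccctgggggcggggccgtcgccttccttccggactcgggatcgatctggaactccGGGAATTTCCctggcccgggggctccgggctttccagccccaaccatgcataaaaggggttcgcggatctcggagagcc
CXCL5: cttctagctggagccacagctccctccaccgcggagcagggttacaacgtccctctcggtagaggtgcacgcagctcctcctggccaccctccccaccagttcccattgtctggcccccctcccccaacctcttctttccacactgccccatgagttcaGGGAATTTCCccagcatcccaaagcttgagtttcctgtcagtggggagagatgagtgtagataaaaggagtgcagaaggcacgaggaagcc

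CXCL5 was measured at 96.7 and 95.5 CPM with DMSO, 22.1 and 20.8 with CSN5i-3, 4.05 and 3.91 with scramble and 36.8 and 34.9 with shCSN5. The inhibitor took the gene down from the highest of the 4 levels and the hairpin took it up from the lowest, -2.16 ± 0.078 (adjusted p = 1.1e-06) and 3.17 ± 0.091 (adjusted p = 3.2e-06), a difference of -5.33 ± 0.12 (adjusted p = 6.6e-07). CXCL1 was measured at 525 and 524 CPM with DMSO, 89.6 and 82.4 with CSN5i-3, 8.27 and 8.86 with scramble and 35.6 and 32.2 with shCSN5. All 4 groups were apart, the DMSO libraries highest. The effects were -2.61 ± 0.08 (adjusted p = 7.4e-07) and 1.99 ± 0.087 (adjusted p = 1.4e-05), a difference of -4.59 ± 0.12 (adjusted p = 9.1e-07). IL6, a cytokine of acute inflammation, had 22.04 and 23.4 CPM with DMSO, 8.51 and 8.88 with CSN5i-3, 0.81 and 0.909 with scramble and 5.86 and 6.41 with shCSN5. The groups did not overlap. IL6 fell by 1.39 on the log2 scale with the inhibitor and rose by 2.84 with the hairpin, and the difference was -4.22 ± 0.17 (adjusted p = 7.1e-06). CXCL2 and CXCL3, close relatives of CXCL1 whose reads may be shared with it, were opposed as well, at -0.37 and -0.31 with the inhibitor and 2.65 and 2.94 with the hairpin. CCL20, a chemokine for memory T cells and dendritic cells, had 683 and 346 counts in the DMSO and CSN5i-3 groups and 0 and 44 in the scramble and shCSN5 groups. It was at least 12.2-fold higher with the hairpin (0 counts set to a floor of 3 over the group) and 0.582 times the control level with the inhibitor.

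Other cytokines fell with the inhibitor and had no call with the hairpin. IL1B, the pyrogenic cytokine interleukin 1β, was at 201 and 201 CPM with DMSO, 9.71 and 10.4 with CSN5i-3, 24.3 and 24.7 with scramble and 24.3 and 24.6 with shCSN5. The CSN5i-3 libraries were the lowest of the 8, and scramble and shCSN5 libraries overlapped. IL1B fell with the inhibitor by 4.32 ± 0.079 (adjusted p = 1.9e-07), and the difference was -4.32 ± 0.10 (adjusted p = 8e-07). CSF3, the granulocyte growth factor, had 79.6 and 79.4 CPM with DMSO, 1.43 and 1.31 with CSN5i-3, 0.519 and 0.949 with scramble and 0.82 and 1.21 with shCSN5. It was abundant in the DMSO libraries alone, and the difference of the effects was -6.35 ± 0.36 (adjusted p = 2.9e-05). LTB, a membrane TNF family ligand, had 557 and 46 counts with DMSO and CSN5i-3 and 1 and 8 with scramble and shCSN5, a knockdown ratio of 6.64 (95% counting interval 0.89 to 295, covering counting error only).

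Other members rose with both agents. CXCL8, the neutrophil chemokine interleukin 8, had 813 and 804 CPM with DMSO, 1631 and 1618 with CSN5i-3, 16.3 and 13.8 with scramble and 112 and 102 with shCSN5. It was higher in both treated groups than in their controls, with effects of 1.01 ± 0.084 (adjusted p = 3.7e-05) and 2.83 ± 0.093 (adjusted p = 4.9e-06), and the difference was -1.82 ± 0.12 (adjusted p = 6e-05). BIRC3, an inhibitor of apoptosis induced by NF-kB, rose by 1.67 ± 0.11 and 2.51 ± 0.11, and TRAF1, an adaptor of TNF receptors, by 1.15 ± 0.14 and 4.07 ± 0.31. Among the NF-kB subunits and feedback inhibitors, TNFAIP3, the deubiquitinase A20, stood at 28.2 and 26.7 CPM with DMSO, 75.9 and 75.04 with CSN5i-3, 6.39 and 6.92 with scramble and 18.4 and 19.4 with shCSN5. Each treated group was above its control, by 1.46 ± 0.08 with the inhibitor and 1.51 ± 0.09 with the hairpin, and the difference was -0.046 ± 0.12 (adjusted p = 0.79). RELB, an NF-kB subunit, rose by 1.36 ± 0.12 and 1.36 ± 0.15, and NFKBIA, which encodes IκBα, by 0.30 ± 0.078 and 0.47 ± 0.08. Of the 16 measured NF-kB subunits and feedback inhibitors, 10 rose and 1 fell with the inhibitor, 9 rose with the hairpin (5 in the knockdown libraries alone), and the difference was called higher in 1 and lower in 2.

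**Figure D3:**
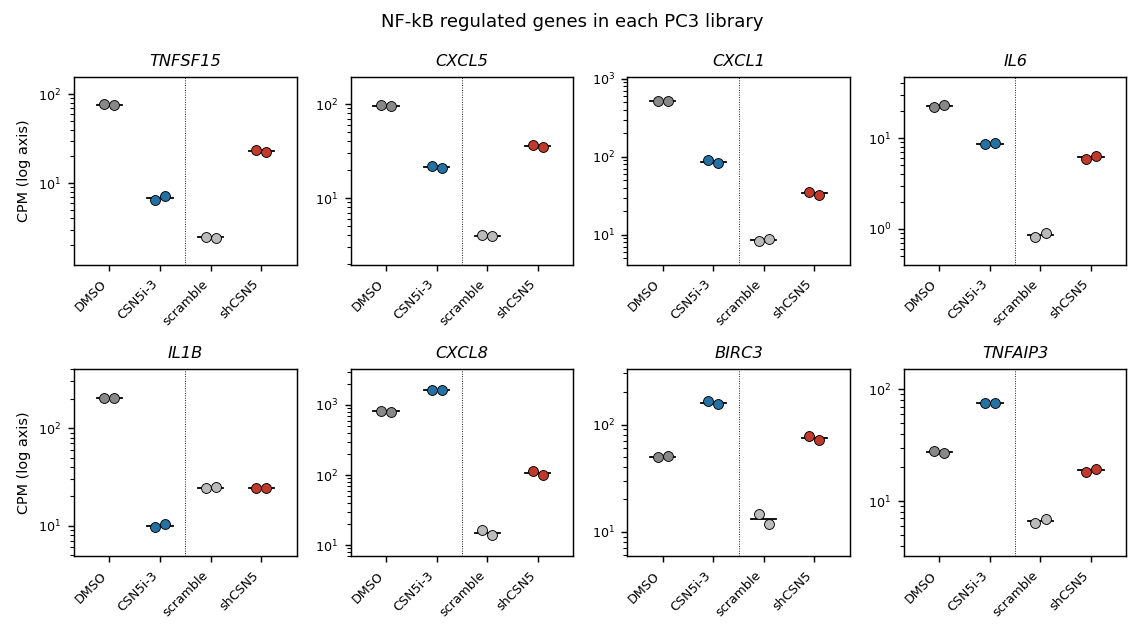
CPM (log axis) of 8 NF-kB regulated genes in each of the 8 PC3 libraries, with bars at the group means and a dotted line between the inhibitor and the knockdown experiment. TNFSF15, CXCL5, CXCL1 and IL6 fall with CSN5i-3 and rise with shCSN5, IL1B falls with CSN5i-3 alone, and CXCL8, BIRC3 and TNFAIP3 rise with both.

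Interferon-stimulated genes, which encode antiviral effectors and sensors, were raised by the inhibitor and much less by the hairpin. Of 28 measured, 27 rose with CSN5i-3 (median 2.17), 15 rose with shCSN5 (median 0.45; 7 in the knockdown libraries alone), and 23 were higher and none was lower in the difference, which had a median of 1.61. In the controls, 26 of the 28 were higher with DMSO than with scramble, by a median of 2.10. RSAD2 encodes viperin, an antiviral enzyme, and had the largest positive difference of the genes with at least 5 CPM in a group. It stood at 7.82 and 9.01 CPM with DMSO, 261 and 259 with CSN5i-3, 1.17 and 0.593 with scramble and 1.87 and 2.04 with shCSN5. The CSN5i-3 libraries lay far above the other 6. The inhibitor effect was 4.95 ± 0.16 (adjusted p = 7.4e-07), the knockdown effect 1.11 ± 0.25 (adjusted p = 0.012, or 0.055 in the knockdown libraries alone) and the difference 3.84 ± 0.33 (adjusted p = 0.00015). The 250 bases before its start (RefSeq, GRCh38.p14, chr2:6877527-6877776, plus strand) are shown because they hold a match, in capitals and on the opposite strand, to the interferon-stimulated response element (GAAA, 2 bases of any kind, GAAA). The motif was in 15 of 21 list members with a promoter in the table (71.4%) and in 3.71% of the 27305 genes, searched on both strands.
RSAD2: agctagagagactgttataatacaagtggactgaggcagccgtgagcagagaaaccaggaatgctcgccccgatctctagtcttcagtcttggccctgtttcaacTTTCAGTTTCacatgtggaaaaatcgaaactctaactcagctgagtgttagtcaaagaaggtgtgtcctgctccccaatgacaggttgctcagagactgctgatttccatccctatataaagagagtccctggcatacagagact

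MX1, a GTPase that blocks viral nucleocapsids, had 168 and 166 CPM with DMSO, 963 and 964 with CSN5i-3, 8.01 and 7.51 with scramble and 10.04 and 10.2 with shCSN5. Its level with CSN5i-3 was above all other libraries, and all 4 libraries of the knockdown experiment lay far below DMSO. The effects were 2.53 ± 0.061 (adjusted p = 4.1e-07) and 0.38 ± 0.069 (adjusted p = 0.0049, or 0.088 in the knockdown libraries alone), and the difference was 2.15 ± 0.09 (adjusted p = 8.2e-06). MX2 (3.39 ± 0.25), CMPK2 (3.13 ± 0.12), a mitochondrial nucleotide kinase, HERC5 (2.73 ± 0.18), the ligase for ISG15, and IFITM1 (2.87 ± 0.35), a membrane protein that restricts viral entry, also had differences among the 8 largest positive ones. TRIM22, a ligase induced by interferon and named among those 8, was at 17.03 and 19.5 CPM with CSN5i-3 and at no more than 1.55 CPM elsewhere, and its difference of 3.51 ± 0.67 (adjusted p = 0.0048) had an adjusted p of 0.17 without scramble replicate 1. IFIT2, an RNA-binding effector, was the exception in size: it rose by 2.10 ± 0.086 with the inhibitor and 1.79 ± 0.087 with the hairpin, and the difference of 0.31 ± 0.12 (adjusted p = 0.073) was not called. ISG15 rose with the inhibitor, but its scramble libraries lay apart (15.5 and 44.4 CPM) and the difference was 1.56 ± 0.61 (adjusted p = 0.079).

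Amino acid stress genes, which the transcription factor ATF4 induces when amino acids run short or the integrated stress response is active, rose with the hairpin and split with the inhibitor. With shCSN5, 25 of 28 rose and none fell (24 in the knockdown libraries alone), and with CSN5i-3, 12 rose and 9 fell. Of all genes, the hairpin raised 15.9% and lowered 17.4%, and the inhibitor raised 29.8% and lowered 28.5%. The 9 of 28 that fell with CSN5i-3 are close to that last share. In the difference, 21 were lower and 2 higher, with a median of -0.94, against 18.6% and 20.5% of all genes. Of the 28, 7 fell with the inhibitor and rose with the hairpin, against 2.63% of all genes. All 28 were higher with DMSO than with scramble (35.3% of all genes), by a median of 1.74. CHAC1, an enzyme that degrades glutathione, stood at 169 and 165 CPM with DMSO, 57.2 and 62.2 with CSN5i-3, 4.31 and 6.60 with scramble and 55.9 and 78.2 with shCSN5. The scramble libraries were lowest and the DMSO libraries highest, and the CSN5i-3 and shCSN5 libraries overlapped, reached from opposite sides. The effects were -1.49 ± 0.19 (adjusted p = 0.0003) and 3.63 ± 0.22 (adjusted p = 4.4e-05), and the difference was -5.12 ± 0.29 (adjusted p = 2.9e-05). The 250 bases before the start of CHAC1 (RefSeq, GRCh38.p14, chr15:40953221-40953470, plus strand) are shown for the match, in capitals and on the opposite strand, to TGATGNAA, the core of the CEBP-ATF response element to which ATF4 binds. It was in 5 of 24 members with a promoter (20.8%) and in 3.89% of the 27305 genes.
CHAC1: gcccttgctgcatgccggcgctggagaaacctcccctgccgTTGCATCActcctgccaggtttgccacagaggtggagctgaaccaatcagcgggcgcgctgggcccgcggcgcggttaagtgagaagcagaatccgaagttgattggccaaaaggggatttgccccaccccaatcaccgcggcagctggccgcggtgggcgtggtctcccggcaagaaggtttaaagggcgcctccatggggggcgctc

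ASNS, asparagine synthetase, had 297 and 301 CPM with DMSO, 252 and 254 with CSN5i-3, 95.2 and 79.4 with scramble and 355 and 327 with shCSN5. Scramble libraries were the lowest and shCSN5 libraries the highest, and the CSN5i-3 libraries lay below DMSO. The effects were -0.24 ± 0.09 (adjusted p = 0.049) and 1.97 ± 0.094 (adjusted p = 1.7e-05), a difference of -2.21 ± 0.13 (adjusted p = 3.3e-05). The serine synthesis enzymes PSAT1, PHGDH and PSPH were opposed, at -0.75, -0.73 and -1.25 with the inhibitor and 1.20, 0.97 and 0.28 with the hairpin (PSPH adjusted p = 0.064 in the knockdown libraries alone). SLC7A11, the cystine transporter, and STC2, a secreted glycoprotein, rose with the hairpin by 2.13 ± 0.11 and 1.77 ± 0.10, and their inhibitor effects were -0.077 ± 0.11 and -0.014 ± 0.092. Other members went up with both: ATF3, a stress-induced transcription factor, rose by 2.70 ± 0.069 and 3.20 ± 0.08, and TRIB3, a pseudokinase that restrains ATF4 signalling, by 1.27 ± 0.10 and 2.58 ± 0.11. DDIT3, which encodes CHOP, was measured at 112 and 112 CPM with DMSO, 654 and 669.8 with CSN5i-3, 26.3 and 27.8 with scramble and 82.5 and 83.3 with shCSN5. The treated groups were each above their control and apart from it, with effects of 2.56 ± 0.062 (adjusted p = 4.1e-07) and 1.62 ± 0.062 (adjusted p = 8.3e-06), and DDIT3 was with the amino acid transporter subunit SLC3A2 one of the 2 members higher in the difference, by 0.95 ± 0.085 (adjusted p = 0.00018). SLC3A2 had a difference of 0.59 ± 0.14 (adjusted p = 0.013), with adjusted p of 0.080, 0.091 and 0.083 without CSN5i-3 replicate 1, DMSO replicate 1 and DMSO replicate 2.

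ER chaperones, which fold secreted proteins and are induced by the unfolded protein response, rose with the inhibitor and not as a group with the hairpin. With CSN5i-3, 17 of 20 rose and none fell, and with shCSN5, 4 rose and 10 fell (3 and 3 in the knockdown libraries alone). The difference was higher in 17 and lower in none, with a median of 0.76, and 8 rose with the inhibitor and fell with the hairpin, against 2.88% of all genes. Of the 20, 10 were higher and 7 lower with DMSO than with scramble (35.3% and 37.3% of all genes). HSPA5 encodes BiP, the main HSP70 of the ER, and stood at 856 and 866 CPM with DMSO, 2489 and 2454 with CSN5i-3, 619.9 and 555 with scramble and 529 and 503 with shCSN5. The CSN5i-3 libraries were above the other 6, and shCSN5 libraries lay below scramble libraries. The inhibitor effect was 1.52 ± 0.069 (adjusted p = 2.7e-06), the knockdown effect -0.19 ± 0.067 (adjusted p = 0.066) and the difference 1.71 ± 0.10 (adjusted p = 2.8e-05). The 250 bases before its start (RefSeq, GRCh38.p14, chr9:125241344-125241593, minus strand) are shown because they hold, in capitals, the ER stress response element (CCAAT, 9 bases of any kind, CCACG). This element was in 7 of 19 members with a promoter (36.8%) and in 25 of the 27305 genes (0.0916%). None of the 4 motifs searched contains another.
HSPA5: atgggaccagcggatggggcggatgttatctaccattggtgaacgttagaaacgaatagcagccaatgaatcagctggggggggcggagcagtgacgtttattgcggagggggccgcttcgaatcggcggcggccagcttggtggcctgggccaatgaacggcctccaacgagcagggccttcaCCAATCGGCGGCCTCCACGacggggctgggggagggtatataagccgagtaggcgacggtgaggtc

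MANF, a secreted ER stress factor, had 185 and 186 CPM with DMSO, 308 and 306 with CSN5i-3, 165 and 142 with scramble and 98.2 and 91.9 with shCSN5. It was highest with CSN5i-3 and lowest with shCSN5, and it was opposed, 0.72 ± 0.081 (adjusted p = 0.00016) and -0.69 ± 0.081 (adjusted p = 0.00078), with a difference of 1.42 ± 0.11 (adjusted p = 0.00012). CALR, the lectin chaperone calreticulin, was opposed too (0.70 ± 0.061 and -0.49 ± 0.061), as was the thiol isomerase PDIA4 (0.21 ± 0.076 and -0.51 ± 0.077). Of the members that rose with both agents, the ER cochaperone DNAJB9 did so by 2.31 ± 0.08 and 0.99 ± 0.084, the transcription factor XBP1 by 1.16 ± 0.077 and 0.57 ± 0.077, and HERPUD1, a component of ER-associated degradation, by 1.09 ± 0.063 and 0.95 ± 0.064.

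Cytosolic heat shock genes were lower with the hairpin: 15 of 19 fell and 2 rose (14 fell in the knockdown libraries alone), while 9 rose and 7 fell with the inhibitor. Of all genes, the hairpin lowered 17.4% and raised 15.9%, and the inhibitor raised 29.8% and lowered 28.5%. In the difference 12 were higher and 2 lower (median 0.89), against 20.5% and 18.6% of all genes. Of the 19, 7 rose with the inhibitor and fell with the hairpin, against 2.88% of all genes. Of the 19, 16 were lower with DMSO than with scramble. HSPA8, the constitutive HSP70, had 648 and 652 CPM with DMSO, 677 and 682 with CSN5i-3, 3026 and 2698 with scramble and 1211 and 1112 with shCSN5. The scramble libraries were highest, the shCSN5 libraries lay between them and the inhibitor experiment, and the CSN5i-3 libraries were just above DMSO. Its inhibitor effect was 0.063 ± 0.072 (adjusted p = 0.48), its knockdown effect -1.30 ± 0.074 (adjusted p = 3.6e-05) and the difference 1.36 ± 0.10 (adjusted p = 9.8e-05). DNAJB1, the HSP40 that assists HSP70, had 193 and 189.6 CPM with DMSO, 477 and 464 with CSN5i-3, 306 and 327 with scramble and 209 and 218 with shCSN5. It was opposed, 1.30 ± 0.062 (adjusted p = 3.5e-06) and -0.57 ± 0.062 (adjusted p = 0.00055), with a difference of 1.87 ± 0.088 (adjusted p = 1.4e-05). HSPA1A and HSPA1B, the inducible HSP70 genes, are near-identical copies whose reads could be split between them; as counted, both were opposed, with differences of 2.30 ± 0.28 and 2.33 ± 0.13. BAG3, a co-chaperone of selective autophagy, fell with both, by 1.58 and 0.98 on the log2 scale.

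**Figure D4:**
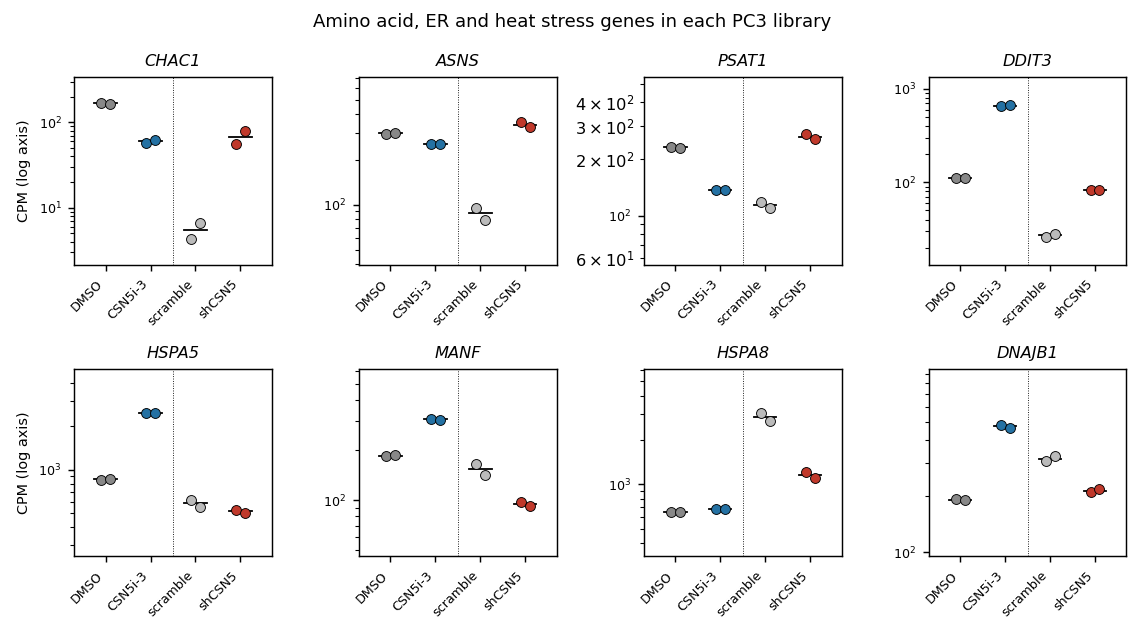
CPM (log axis) of 8 amino acid, ER and heat stress genes in each of the 8 PC3 libraries, with bars at the group means and a dotted line between the experiments. CHAC1, ASNS and PSAT1 fall with CSN5i-3 and rise with shCSN5, DDIT3 rises with both, and HSPA5 and MANF are highest in the CSN5i-3 libraries.

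Cell division genes fell with both agents and further with the inhibitor. All 26 mitosis genes measured fell with CSN5i-3 (median -2.03), 21 fell with shCSN5 (median -0.50; 13 in the knockdown libraries alone), and the difference was lower in all 26 (median -1.57). Of the 26, 25 were lower with DMSO than with scramble, by a median of -1.75. TOP2A, the topoisomerase that untangles chromosomes, stood at 79.03 and 77.2 CPM with DMSO, 7.06 and 6.85 with CSN5i-3, 469 and 398 with scramble and 360.1 and 322 with shCSN5. The CSN5i-3 libraries were lowest, the DMSO libraries below all knockdown-experiment libraries, and shCSN5 below scramble. The effects were -3.49 ± 0.11 (adjusted p = 7.4e-07) and -0.35 ± 0.092 (adjusted p = 0.023, or 0.15 in the knockdown libraries alone), and the difference was -3.14 ± 0.14 (adjusted p = 1e-05). BIRC5, which encodes survivin, a subunit of the chromosomal passenger complex, had 253 and 260.4 CPM with DMSO, 22.2 and 24.1 with CSN5i-3, 325 and 353 with scramble and 201 and 215 with shCSN5. Both treated groups were below their controls, by 3.47 and 0.70 on the log2 scale, and the difference was -2.77 ± 0.11 (adjusted p = 6.8e-06). KIF20A, a kinesin of cytokinesis, fell by 1.92 and 0.98 on the log2 scale, among the smaller differences of the list (-0.93 ± 0.10).

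Replication genes mostly fell with both agents. With the inhibitor 28 of 32 fell and with the hairpin 26 (17 in the knockdown libraries alone). In the difference 16 were lower and 5 higher, against 18.6% and 20.5% of all genes. RRM2, the small subunit of ribonucleotide reductase, had 98.98 and 99.2 CPM with DMSO, 10.8 and 11.1 with CSN5i-3, 485 and 427 with scramble and 276 and 252 with shCSN5. It fell more with the inhibitor, by 3.18 against 0.79 on the log2 scale, a difference of -2.39 ± 0.12 (adjusted p = 1.6e-05). PCNA, the sliding clamp of DNA polymerases, had 103 and 101 CPM with DMSO, 88.9 and 89.2 with CSN5i-3, 321 and 318 with scramble and 125 and 126 with shCSN5. It went the other way: the scramble libraries stood apart above the other 6, the inhibitor effect was -0.19 ± 0.057 (adjusted p = 0.02), the knockdown effect -1.34 ± 0.058 (adjusted p = 1.4e-05) and the difference 1.15 ± 0.081 (adjusted p = 7.3e-05). UNG, the uracil glycosylase, was also lowered more by the hairpin, -1.69 ± 0.077 against -0.79 ± 0.076. CDT1, the licensing factor that cullin ligases degrade, had an mRNA difference of 0.15 ± 0.31 (adjusted p = 0.74), and its protein was not measured.

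Of 15 homologous recombination and Fanconi genes, all fell with the inhibitor, 3 fell and 1 rose with the hairpin (2 and 1 in the knockdown libraries alone), and 14 were lower in the difference, with a median of -1.63. XRCC2, a recombination protein, stood at 15.1 and 15.3 CPM with DMSO, 2.47 and 2.90 with CSN5i-3, 61.5 and 52.5 with scramble and 51.2 and 48.2 with shCSN5. It was at its lowest with CSN5i-3, while the scramble and shCSN5 libraries lay close together. Its effects were -2.50 ± 0.12 (adjusted p = 3.8e-06) and -0.20 ± 0.10 (adjusted p = 0.18). BRCA2 was opposed, at -0.72 ± 0.17 and 0.80 ± 0.13, from 3.31 and 3.44 CPM with DMSO and from 14.4 and 16.9 CPM with scramble. Of these 15 genes, 14 were lower with DMSO than with scramble, by a median of -1.89. Among the regulators of G1, CDKN2B, the CDK4/6 inhibitor p15, was opposed: 266 and 269 CPM with DMSO, 207 and 204 with CSN5i-3, 35.2 and 33.9 with scramble and 114 and 121 with shCSN5. It was high in both inhibitor-experiment groups and rose with the hairpin, -0.38 ± 0.062 (adjusted p = 0.0012) and 1.77 ± 0.066 (adjusted p = 7.1e-06), and the difference was -2.15 ± 0.09 (adjusted p = 8.2e-06). CCND1, which encodes cyclin D1, fell with both, by 1.74 and 0.49 on the log2 scale. CDKN1A, which encodes p21, rose with both, 0.73 ± 0.092 and 0.62 ± 0.11 (adjusted p = 0.0504 for the second in the knockdown libraries alone), with a difference of 0.11 ± 0.14 (adjusted p = 0.58).

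Hypoxia and glycolysis genes fell with the hairpin in 25 of 32 cases (20 in the knockdown libraries alone), and with the inhibitor 14 fell and 9 rose. Of all genes, the hairpin lowered 17.4%, and the inhibitor lowered 28.5% and raised 29.8%. The difference was higher in 14 and lower in 6, against 20.5% and 18.6% of all genes, so the lower ones were near the general share. Of the 32, 6 rose with the inhibitor and fell with the hairpin, against 2.88% of all genes. BNIP3, a mitophagy receptor and HIF-1 target, had 51.2 and 52.4 CPM with DMSO, 65.5 and 61.7 with CSN5i-3, 121 and 109.9 with scramble and 38.1 and 36.4 with shCSN5. The scramble libraries were highest and the shCSN5 libraries lowest, and CSN5i-3 lay above DMSO. It fell with the hairpin and rose with the inhibitor, -1.63 ± 0.081 (adjusted p = 1.9e-05) and 0.30 ± 0.079 (adjusted p = 0.013), a difference of 1.93 ± 0.11 (adjusted p = 3.2e-05). HK2, hexokinase 2, and NDRG1, a stress-responsive gene, were opposed, with differences of 1.65 ± 0.087 and 1.50 ± 0.10. The core glycolytic enzymes PGK1 and LDHA fell with both, by 1.66 and 1.40 and by 1.54 and 1.50 on the log2 scale. PKM, pyruvate kinase, fell further with the inhibitor (-1.70 ± 0.11 and -0.79 ± 0.10).

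Genes of cholesterol and fatty acid synthesis were raised by the inhibitor, 17 of 32 with 6 lower, against 29.8% and 28.5% of all genes. With the hairpin 5 were higher and 3 lower (2 and none in the knockdown libraries alone), against 15.9% and 17.4%. The difference was higher in 14 and lower in 6 (11 to 13 higher under the other scalings). With TMM scaling, 20.5% of all genes were higher and 18.6% lower, so the lower members were near the general share. INSIG1, the sterol-regulated anchor of SREBP, stood at 12.6 and 13.9 CPM with DMSO, 58.8 and 58.1 with CSN5i-3, 22.9 and 22.02 with scramble and 29.6 and 25.2 with shCSN5. The CSN5i-3 libraries were above the other 6. The effects were 2.14 ± 0.10 (adjusted p = 3.5e-06) and 0.29 ± 0.10 (adjusted p = 0.063), a difference of 1.85 ± 0.14 (adjusted p = 0.00011). FDPS, EBP and ACLY, also of these pathways, fell with the inhibitor, and their differences were -0.47 ± 0.081, -0.58 ± 0.13 and -0.69 ± 0.11.

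Most proteasome subunits fell with the inhibitor and with the hairpin. Of 31 subunits, 23 fell and 2 rose with the inhibitor and 30 fell with the hairpin (17 in the knockdown libraries alone), with medians of -0.47 and -0.56, against 28.5% and 17.4% of all genes lowered by the inhibitor and by the hairpin. In the difference 6 subunits were higher and 3 lower, against 20.5% and 18.6% of all genes (4 higher and 6 lower with total counts). Of 23 p53 target genes in this line without functional p53, 13 rose and 7 fell with the inhibitor (29.8% and 28.5% of all genes). In the difference 5 were higher and 4 lower, close to the 20.5% and 18.6% of all genes. GDF15, a stress-induced cytokine on that list, rose with both, at 559 and 545 CPM with DMSO, 1290.4 and 1264 with CSN5i-3, 3.40 and 5.61 with scramble and 42.8 and 56.9 with shCSN5. Both groups of the inhibitor experiment were far above the knockdown experiment, and the difference was -2.27 ± 0.27 (adjusted p = 0.00064). Of 34 cytosolic ribosomal proteins, 12 were higher in the difference with TMM scaling, 5 with total counts or upper quartile factors and 6 with DESeq2. Of all 16794 genes, 3442 were higher with TMM scaling, 2469 with total counts, 2544 with upper quartile factors and 2984 with DESeq2. Outside TMM scaling the share of the list was close to that of all genes.

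**Figure D5:**
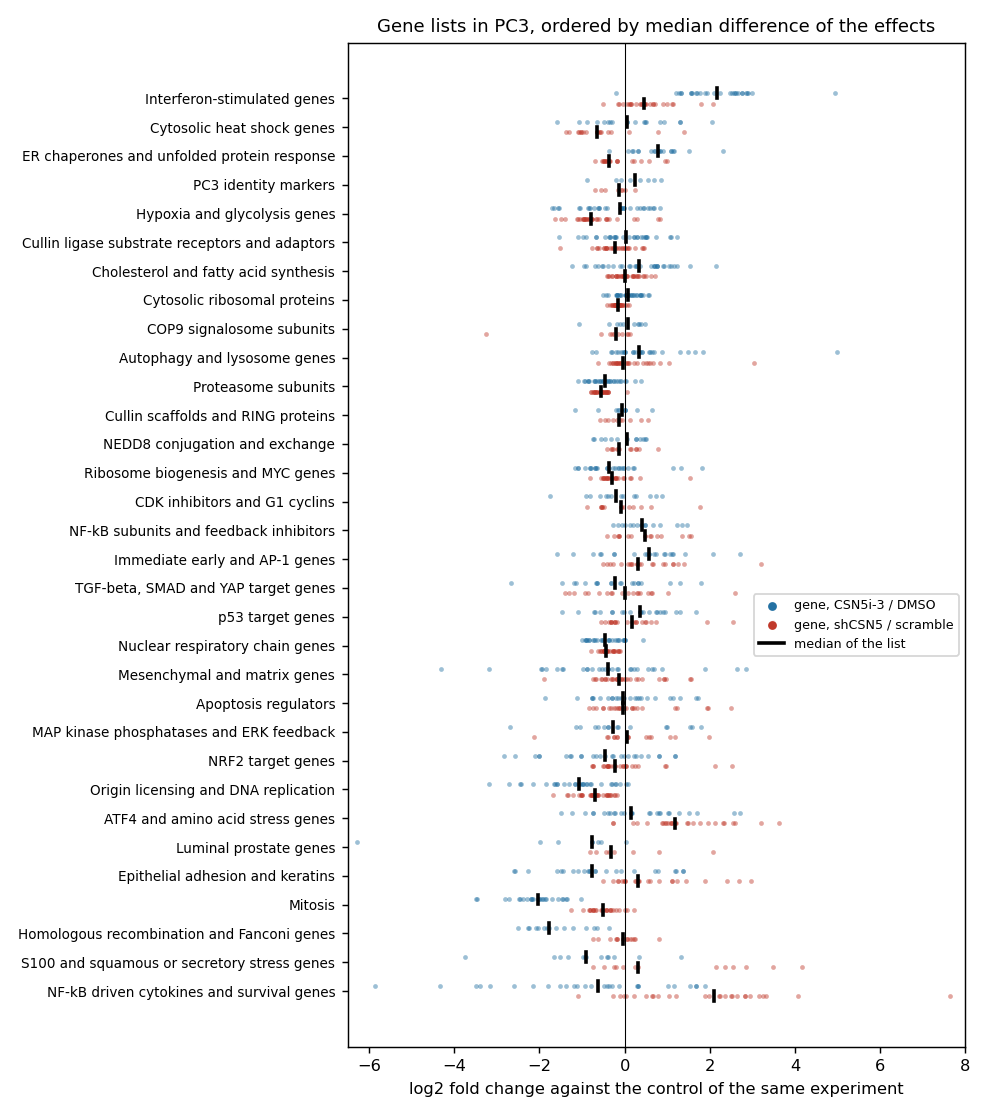
Effects of single genes (points, log2 against the control of the same experiment) and list medians (black bars) for each list with at least 8 measured members, CSN5i-3 in blue and shCSN5 in red, ordered by the median difference of the effects. Interferon-stimulated genes are at the top and NF-kB driven cytokines and survival genes at the bottom. The point furthest right is CCL20, a fitted value against a control with no counts.

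Outside these lists, the largest negative differences included genes that fell with the inhibitor and rose with the hairpin and had at least 5 CPM in a group. TNS4, a focal adhesion protein, had 10.7 and 10.3 CPM with DMSO, 0.356 and 0.257 with CSN5i-3, 7.75 and 8.30 with scramble and 42.9 and 49.5 with shCSN5. It was nearly lost with CSN5i-3 and highest with shCSN5, and the difference was -7.59 ± 0.21 (adjusted p = 1.2e-06). TMPRSS3, a serine protease, was at 0.997 and 1.10 CPM with DMSO, 0.111 and 0.103 with CSN5i-3, 0.584 and 0.474 with scramble and 5.94 and 5.20 with shCSN5. It was opposed in the same way, with a difference of -6.63 ± 0.34 (adjusted p = 1.9e-05). The gel-forming mucin MUC5AC had a difference of -6.03 ± 0.41 (adjusted p = 6.3e-05), the secreted mucin MUC2 one of -5.33 ± 0.44 (adjusted p = 0.00013), and HHIP, a hedgehog antagonist, and NID2, a basement membrane protein, ones of -4.43 ± 0.17 and -4.33 ± 0.19. The aldo-keto reductase AKR1C2 had 588 and 72 counts with DMSO and CSN5i-3 and 1 and 8 with scramble and shCSN5 (knockdown ratio 6.64, 95% counting interval 0.89 to 295), and its reads may be shared with its close relatives. CLTRN, a renal amino acid transport partner also known as collectrin, was higher under the inhibitor relative to the knockdown by 3.20 ± 0.18 (adjusted p = 2.9e-05).

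Genes that rose with CSN5i-3 and fell with shCSN5, named here by the smaller of their 2 effects, included CXCR4, the receptor of CXCL12, beside the HSP70 and hexokinase genes above. CXCR4 was at 5.43 and 5.72 CPM with DMSO, 16.5 and 15.7 with CSN5i-3, 6.16 and 5.26 with scramble and 2.72 and 3.31 with shCSN5. The CSN5i-3 libraries were the highest and shCSN5 the lowest, and the effects were 1.53 ± 0.11 (adjusted p = 2.2e-05) and -0.93 ± 0.14 (adjusted p = 0.0022). CLEC2B, a lectin ligand of natural killer cell receptors, IRX2, a homeobox factor, OSTM1, a lysosomal protein, and DIPK1A were others, with differences of 2.53 ± 0.21, 2.01 ± 0.21, 1.61 ± 0.13 and 1.95 ± 0.28 (knockdown adjusted p = 0.087 for DIPK1A in the knockdown libraries alone).

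Some of the genes with the largest effects moved the same way with both agents. HAS3, a hyaluronan synthase, had 1065 and 1055 CPM with DMSO, 86.6 and 88.2 with CSN5i-3, 602 and 616 with scramble and 192 and 204 with shCSN5. It fell with both, by 3.60 and 1.62 on the log2 scale, and each treated group was below its control. COL6A3, a collagen VI chain, fell by 4.32 and 1.89 on the same scale, and the sodium channel subunit SCNN1G fell by 4.76 and 3.20. PTPN5, a phosphatase, GABBR2, a GABA-B receptor subunit, and PLXNA4, a semaphorin receptor, fell with both, and their differences of 0.16 ± 0.35, -0.47 ± 0.22 and 0.11 ± 0.25 were not called. Upward, ATP6V0D2, a subunit of the vacuolar proton pump, had 0.427 and 0.339 CPM with DMSO, 11.9 and 12.7 with CSN5i-3, 0.227 and 0.158 with scramble and 1.87 and 1.36 with shCSN5. It was highest with CSN5i-3 and rose with both, by 4.99 ± 0.18 and 3.03 ± 0.32, and its difference of 1.96 ± 0.52 had an adjusted p of 0.019 in all libraries, 0.056 without DMSO replicate 2 and 0.18 without scramble replicate 1. KCNU1, a potassium channel, NECAB1, a neuronal calcium-binding protein, and the long noncoding RNA GRASLND rose with both and their differences were not called, -0.36 ± 0.39, -0.77 ± 0.44 and -0.13 ± 0.18. DMGDH, a mitochondrial dehydrogenase, rose by 2.59 ± 0.14 and 3.88 ± 0.28, and the difference of -1.29 ± 0.38 (adjusted p = 0.029) was lost with DESeq2 (0.061), with limma (0.17) and without any one of 5 libraries (0.052 to 0.13).

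Of the markers of other cell types, 4 of 8 leukocyte and 4 of 8 fibroblast markers had enough counts to be tested. PTPRC, the pan-leukocyte CD45, was at 0.474 to 0.519 CPM with scramble and 2.23 to 2.26 CPM with shCSN5, and no higher than 0.223 CPM in the inhibitor experiment. No leukocyte marker was called in the difference. COL3A1 and PDGFRA, fibroblast markers at no more than 2.04 and 7.94 CPM, were lower in the difference, PDGFRA with an adjusted p of 0.037 that was 0.12 without CSN5i-3 replicate 1, 0.094 without DMSO replicate 1, 0.16 without shCSN5 replicate 1 and 0.088 with limma. The part of such cells in the results was not tested.

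The same contrast was formed in 22Rv1, another human prostate cancer line, where CSN5i-3 was given at 5 µM and the inhibitor and knockdown libraries came from 2 further sequencing projects. The difference of the effects was not the same in the 2 lines in 2894 of 19059 genes (15.2%), with 1199 higher in PC3 (6.29%) and 1695 lower (8.89%), and line, dose and project cannot be told apart. ER chaperones, at a median of 0.71 in PC3 and -0.72 in 22Rv1, were higher in PC3 in 18 of 20 cases. Interferon-stimulated genes were higher in PC3 in 14 of 28 cases, and 21 of 28 ATF4 genes and 21 of 26 mitosis genes were lower. NF-kB driven cytokine and survival genes had a median of -2.46 in PC3 and 0.18 in 22Rv1 in this fit. Of these 28 genes, 10 were lower in PC3 and none was higher.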

How the data were processed

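The authors deposited whole-number read counts per Ensembl gene, made with Partek per the submitters' processing notes. For the genome build, aligner and counting settings, nothing is given in the sources used here. The F and J tables were joined by Ensembl identifier (57445 rows, of which 89.6% matched a current symbol). The 8 PC3 libraries were fitted in edgeR 4.0.16 (R 4.3.3) with TMM factors, filterByExpr with a minimum count of 10, 1 mean per group and the quasi-likelihood test, leaving 4 residual degrees of freedom, with Benjamini-Hochberg adjustment over 16794 genes. The SE is the log2 fold change divided by the root of F. In simulated counts with 100 genes changed at each size, 56% of 2-fold and 95% of 4-fold differences were recovered over 16310 genes. In the same counts 10 unchanged genes were called. These rates hold for the simulated counts only. Error between projects whose control groups differ in 72.6% of genes was not tested. Alternatives used limma 3.58.1 and DESeq2 1.42.0, and a fit with the spread estimated in each experiment was added after the data were seen. Named genes were the largest positive, negative, opposed and shared changes reaching a mean of 5 CPM in a group, plus list members. The members and the 35 lists were chosen with earlier results of these data known. Some genes of the lists are not reported here by name. Promoter windows came from RefSeq.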

Additional observations from a re-analysis of the deposited data

Results flagged for a closer look

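22Rv1 had its own DMSO, CSN5i-3, scramble and shCSN5 libraries, of 20.6M to 39.3M counts each. There CSN5i-3 was given at 5 µM, against 10 µM in PC3, and the 22Rv1 inhibitor and knockdown libraries came from 2 sequencing projects other than those of PC3, so line, dose and project cannot be told apart. In one edgeR quasi-likelihood fit of the 16 libraries, the difference between the inhibitor and the knockdown effect was itself different between the lines, with 1199 genes higher in PC3 and 1695 lower. Beside the lists given above, genes of cholesterol and fatty acid synthesis were higher in PC3 in 17 of 32 cases and lower in 1.

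The genes named next were chosen after their values were seen, and each value is the difference of the effects in PC3 minus that in 22Rv1. HSPA5 differed by 2.95 ± 0.17 (adjusted p = 7.5e-07), at 1.66 in PC3 and -1.29 in 22Rv1. MANF differed by 2.57 ± 0.22 (adjusted p = 1.3e-05), and INSIG1 by 3.06 ± 0.21 (adjusted p = 2.4e-06). ASNS differed by -3.37 ± 0.25 (adjusted p = 4.0e-06), at -2.26 in PC3 and 1.12 in 22Rv1. DDIT3 differed by 1.45 ± 0.15 (adjusted p = 6.1e-05), at 0.90 and -0.56. TOP2A differed by -3.33 ± 0.25 (adjusted p = 5.4e-06), and was at 0.13 in 22Rv1. MX1 differed by 2.03 ± 0.17 (adjusted p = 9.9e-06), and was at 0.074 in 22Rv1.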

How the results depend on the processing

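The libraries of the knockdown experiment were shallower and more variable than those of the inhibitor experiment, and no library of one agent was made in the other project. The difference of the effects of each named gene was recomputed with total counts, upper quartile factors, DESeq2, limma with sample weights, no low-count filter and without each library. Of the 112 called genes named, 11 lost the call of the difference under at least 1 of these, and none changed direction. Blocking on the replicate number gave 5260 genes higher and 4814 lower in the difference of the effects, 4258 higher and 5048 lower with the hairpin, 1206 and 889 opposed genes (inhibitor higher, inhibitor lower), and 660 higher and 1025 lower against 22Rv1. It also called COPS2, COPS9, GPS1 and COPS7A in the difference (adjusted p = 0.00022, 0.0012, 0.0082 and 0.039). The labels name no batch or culture behind a replicate number. Deviations of same-numbered libraries correlated at -0.0062 in the inhibitor and 0.40 in the knockdown experiment, each with only 2 numbers, which does not settle whether the numbers pair libraries. With limma, knockdown counts were 1316 higher and 1828 lower and opposed genes with the inhibitor lower 257. In the knockdown libraries alone the hairpin raised 1586 and lowered 992. Total counts gave 1815 lower with the hairpin, and opposed genes numbered 241 and 644 with total counts, 279 and 554 with upper quartile factors and 315 and 659 without the filter. Leaving out 1 library at a time gave 1907 to 4200 higher and 2186 to 3961 lower in the difference, 3636 to 5690 and 3594 to 5718 with the inhibitor, 1616 to 3269 and 1873 to 3466 with the hairpin, and 157 to 790 and 290 to 597 opposed. Genes higher in the difference numbered 1930 without CSN5i-3 replicate 1, 1931 without DMSO replicate 1 and 1907 without DMSO replicate 2. Genes lower with the hairpin numbered 1900, 1873 and 1879 without those libraries and 1906 without shCSN5 replicate 1, and genes higher 1616 without shCSN5 replicate 1. The median difference of ribosome biogenesis genes, 0.08, turned to -0.07 with total counts, -0.04 with upper quartile factors, -0.02 without DMSO replicate 2 and -0.01 without scramble replicate 1. The cause of these changes was not tested.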

Other observations

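Targets of NRF2, the oxidative stress factor whose protein the KEAP1-CUL3 ligase degrades, were lower on balance under the inhibitor relative to the knockdown. In the difference 12 of 27 were lower and 5 higher, against 18.6% and 20.5% of all genes, with a median of -0.35. With the inhibitor 15 fell and 6 rose, against 28.5% and 29.8% of all genes. With the hairpin 8 fell and 4 rose (4 and 3 in the knockdown libraries alone), against 17.4% and 15.9%. HMOX1, heme oxygenase, stood at 69.1 and 65.5 CPM with DMSO, 10.6 and 11.8 with CSN5i-3, 7.75 and 10.2 with scramble and 7.70 and 9.76 with shCSN5. Only the DMSO libraries were high, and the difference was -2.55 ± 0.22 (adjusted p = 0.00017). NQO1, a quinone reductase, fell with both agents, -2.01 ± 0.067 (adjusted p = 8.7e-07) and -0.76 ± 0.064 (adjusted p = 0.00019), and further with the inhibitor (-1.25 ± 0.091). The glutathione synthesis subunit GCLM was lower in the difference (-0.89 ± 0.16), and UGDH, which supplies glucuronate, was higher (1.42 ± 0.13). The mRNA of NRF2 itself, NFE2L2, rose with the inhibitor by 0.80 ± 0.091. Of the 27 genes, 17 were higher and 6 lower with DMSO than with scramble.

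Epithelial adhesion and keratin genes were lower in 15 of 24 cases and higher in 2, with a median difference of -1.28, and 5 fell with the inhibitor and rose with the hairpin. CDH1, which encodes E-cadherin, had 2.10 and 2.33 CPM with DMSO, 0.757 and 0.719 with CSN5i-3, 0.94 and 1.19 with scramble and 3.76 and 4.09 with shCSN5. The shCSN5 libraries were highest and the CSN5i-3 libraries lowest, and the difference was -3.47 ± 0.24 (adjusted p = 6.9e-05). KRT7, a simple epithelial keratin, had a difference of -3.38 ± 0.30. DSP, the desmosomal plaque protein desmoplakin, and the laminin chain LAMA3 went the other way, 1.23 ± 0.10 and 0.88 ± 0.079. Of 13 measured S100 and squamous or secretory stress genes, 9 were lower and none higher. PI3, which encodes the protease inhibitor elafin, had 878 and 876 CPM with DMSO, 434 and 458 with CSN5i-3, 39.9 and 41.7 with scramble and 436 and 469.7 with shCSN5. CSN5i-3 and shCSN5 libraries met at one level from opposite sides, and the difference was -4.45 ± 0.10 (adjusted p = 6.6e-07). S100P was likewise opposed, -0.38 ± 0.10 (adjusted p = 0.0097) and 4.17 ± 0.15 (adjusted p = 6.4e-06). In both lists more genes were higher with DMSO than with scramble than the reverse, 17 against 5 and 12 against none.

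Immediate early genes split evenly, 7 higher and 7 lower of 22 in the difference, against 20.5% and 18.6% of all genes. JUN, an AP-1 subunit, had a difference of 1.62 ± 0.14 (adjusted p = 0.00017), with an inhibitor effect of 1.10 ± 0.10 and a knockdown effect of -0.52 ± 0.10 (adjusted p = 0.077 in the knockdown libraries alone). MYC, the growth factor-induced transcription factor, rose with the inhibitor by 1.14 ± 0.11, and its knockdown effect was 0.15 ± 0.11 (adjusted p = 0.34). EGR2 and IER3 were opposed the other way, with differences of -2.73 ± 0.23 and -1.48 ± 0.14. Of 29 autophagy and lysosome genes, 11 were higher and 1 was lower, against 20.5% and 18.6% of all genes, and 8 were higher and 2 lower with total counts or upper quartile factors. WIPI1, an autophagosome formation protein, rose with both, 1.83 ± 0.074 and 0.67 ± 0.075, with a difference of 1.16 ± 0.10 (adjusted p = 0.00018), and the lysosomal membrane protein LAMP2 had a difference of 1.09 ± 0.12 (adjusted p = 0.0004). Of 30 substrate receptors and adaptors of cullin ligases, 10 were higher and 4 lower, against the same 20.5% and 18.6% of all genes. With total counts or upper quartile factors 8 were higher and 6 lower. Of all 16794 genes, 2469 were higher and 3898 lower with total counts, and 2544 and 3737 with upper quartile factors.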
